A study of Zea mays with 10 samples.

Results

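F7025 and Cm484, 2 of the 5 inbred maize lines whose stems were profiled, shared 67 probe sets that set them apart from F7033, F98902 and F2. Of these, 35 were higher in the pair and 32 were lower. A probe set is a group of short probes on the Affymetrix maize array that together give 1 value for 1 transcript sequence. The members were chosen by their measured values. All 4 arrays of F7025 and Cm484 had to lie above, or all below, all 6 arrays of the other lines. The nearest arrays had to be at least 1.5 log2 apart, and the higher side had to read at least 6 log2 on every array. Of 17555 probe sets without the array and reporter controls, 0.199% met the rule as higher and 0.182% as lower. These shares and the values across the split describe how the set was made, and no test was applied to them.

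The series is on the diversity of the maize cell wall; its design line speaks of organs, but every label gives stem. F7025 came from "IodentXF113bm3" and is a Flint-Dent type with yellow grain (whether it carries the bm3 allele is not given), and Cm484 came from "200-2-1" and is also Flint-Dent. F7033 came from "(LorenaXF252)XF252" and is Flint-Dent with yellow grain, F98902 came from "Iodent" and is Dent, and F2 came from "lacaune" and is Flint. All lines were untreated, were planted on 1 day and cut on 1 day, and had 2 arrays each, made from separate pools of 5 plants. The labels record less RNA for the second arrays of Cm484, F98902 and F2 (20 µg each) than for the other 7 (60 to 100 µg). Nothing in the labels places the pools in separate plots, and the p-values here thus cover only differences from pool to pool, some of which may be technical. Flint-Dent stocks stand on both sides of the split, and Iodent is named as an origin of F7025 on one side and of F98902 on the other.

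An inbred line is a stock brought close to homozygosity by repeated selfing, so that each gene is present in essentially 1 allele. Lines that descend from common parents carry stretches of chromosome in the same form, and alleles of a gene can differ in how much RNA they give and in their sequence. An array value depends both on the amount of RNA and on how well that RNA matches the probes. Within 1 probe set these cannot be told apart, nor can fewer cells of a type be told from less RNA per cell. GCRMA, the method that made the deposited log2 values, draws dim probe sets towards a low floor. A line mean under 4 is called dim here, and folds against dim lines are given as lower bounds with those lines set to 4.

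The tissue label was set against genes known from stems and from other organs. The 3 secondary wall cellulose synthases cesa10, cesa11 and CesA12 read 9.49 to 12.04 on all 10 arrays. Among 18 probe sets of kernel storage and endosperm genes, 14 were under 4 on all arrays, among them all those of the zein genes z1C1_4, z1C2, z1D_2, z1C1_12 and gz50 and of the regulator o2, while probe sets of bt2, gz27, ae1 and zpu1 passed the filter. The highest single reading among these was of bt2, which read 4.68 to 5.93 in F7025 and Cm484, against 4.35 to 5.05 in F7033 and F98902 and 7.34 and 7.49 in F2. The passing probe set of gz27, also a zein gene, read 6.06 to 6.75 in F7025 and Cm484 and 5.33 to 7.13 in the other lines. Other probe sets of gz27 were under 4 on all arrays. Of 20 probe sets of leaf photosynthesis genes, 17 passed the filter on dim values, and the summed log2 value of the list was 186.9 to 194.3 on arrays of F7025 and Cm484, against 182.4 to 196.5 in the other lines. No annotated probe set stood for the pollen genes sought. Across probe sets, which are no replicates, Pearson's r was 0.913 to 0.937 between arrays of F7025 and arrays of Cm484, and from 0.965 in F98902 up to 0.993 in F2 between arrays of the same line.

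**Figure D1:**
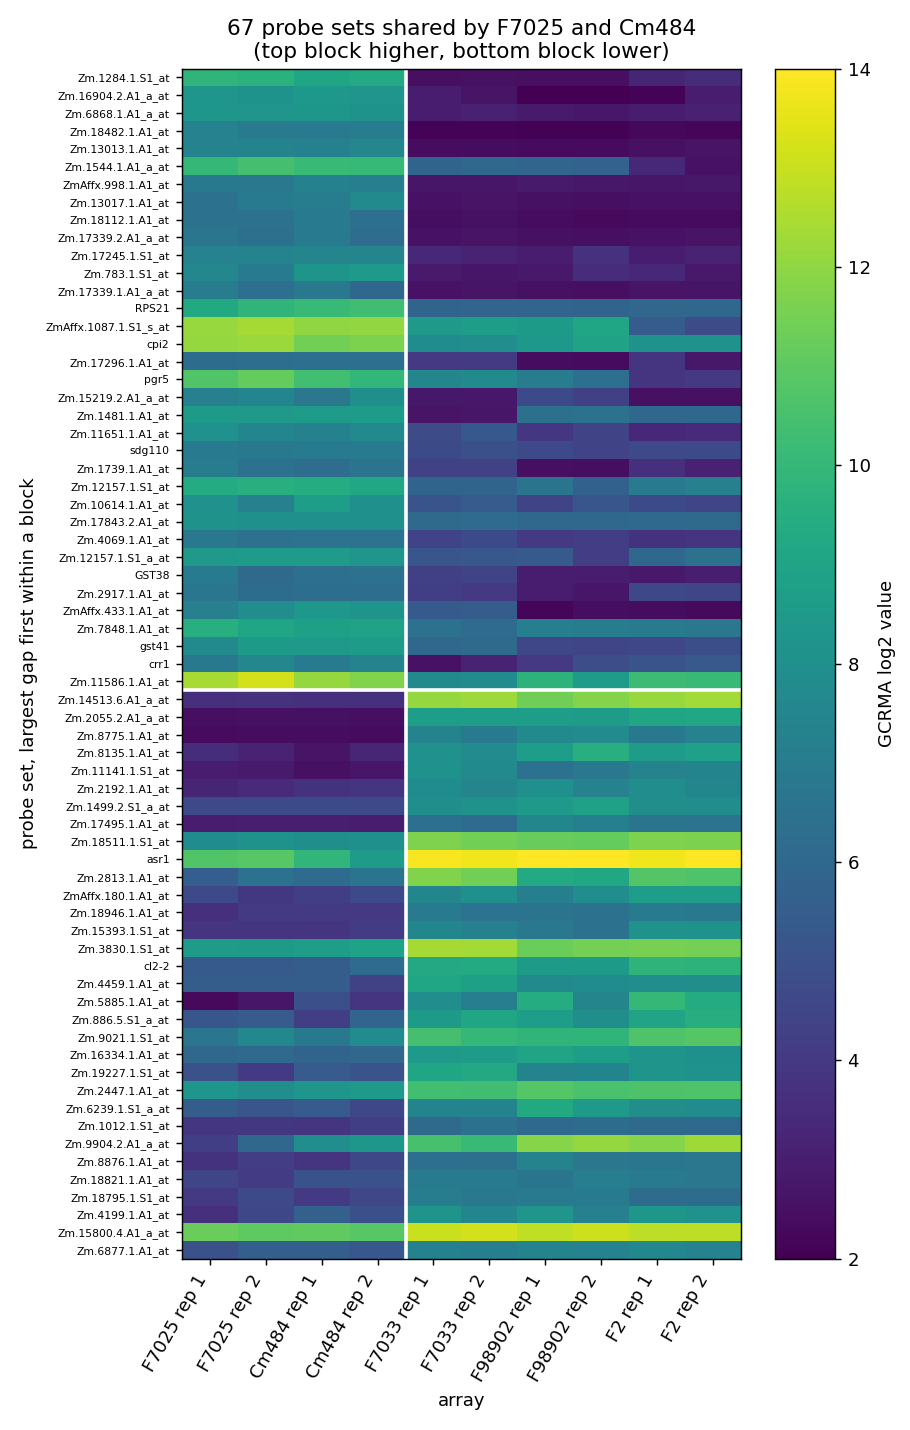
GCRMA log2 values of the 67 probe sets (rows) on the 10 arrays (columns), with F7025 and Cm484 left of the white line. The 35 higher members form the upper block and the 32 lower members the lower block, each ordered by the gap between the nearest arrays.

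The annotation used here named 1 gene for 9 of the 67 members (13.4%), against 8.27% of all probe sets. The 7 named genes that were higher in F7025 and Cm484 were RPS21, cpi2, pgr5, sdg110, GST38, gst41 and crr1. The 2 lower ones were asr1 and cl2-2. Symbols are those of the array annotation or synonyms in the gene table of the B73 assembly (version 5.0), which held 8 of the 9 genes and not pgr5. None of these 8 genes neighboured another one there. The closest pair, RPS21 and GST38, had 519 annotated genes between them, and the only other pair on 1 chromosome, gst41 and cl2-2, had 2337.

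Cytokinin signalling and chromatin were represented by 1 gene each among the higher members. Response regulators such as crr1 (LOC541613) are induced by the hormone cytokinin and relay or dampen its signal. Its log2 values were 6.87 and 7.57 in F7025 and 6.94 and 7.35 in Cm484, against 2.60 and 3.21 in F7033, 4.01 and 4.83 in F98902, and 5.13 and 5.34 in F2. The pair thus lay at least 6.17-fold above the mean of the others, with F7033 lowest and F2 nearest. The gene sdg110 (LOC542662) belongs to the SET domain group, whose proteins methylate histones. It read 6.89 and 6.86 in F7025 and 7.00 and 6.91 in Cm484, against 4.70 and 4.92 in F7033, 4.67 and 4.40 in F98902, and 4.65 and 4.69 in F2. Here the pair was 4.75-fold higher, and lines on the same side of the split lay close together.

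Glutathione S-transferases, which couple glutathione to reactive compounds and herbicides, gave 2 higher members. GST38 (LOC541847) read 6.89 and 6.13 in F7025 and 6.37 and 6.52 in Cm484, against 4.25 and 4.45 in F7033, 2.91 and 2.98 in F98902, and 2.84 and 3.005 in F2. For gst41 (LOC541849) the values were 7.69 and 8.56 in F7025 and 8.47 and 8.63 in Cm484, against 6.06 and 6.13 in F7033, 4.53 and 4.52 in F98902, and 4.55 and 4.86 in F2. Both genes had the same order of lines, with the pair on top, then F7033, and with F98902 and F2 lowest. The excess of the pair was at least 5.14-fold for GST38 and 9.37-fold for gst41. Of 35 glutathione transferase probe sets, 13 passed the filter on dim values, and their median difference across the split was −0.35 log2, against −0.03 over all 11066 probe sets that passed. The 2 named here were the 2 of the 13 with all arrays of the pair above all others, and gst10 and gst1 had them below by less than 0.1 log2. Over all tested probe sets, 5.68% had the pair above and 8.2% had it below at any gap. Other family members followed other patterns. One of them, gst18, picked after its values were seen, read 8.05 and 8.45 in F7025 and 8.13 and 7.18 in Cm484, against 9.14 and 9.06 in F7033, 6.97 and 5.16 in F98902 and 2.50 and 2.53 in F2.

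Genes of protein synthesis and protein breakdown gave 1 higher member each. RPS21 (LOC542449) encodes a protein of the small ribosomal subunit. It read 9.30 and 9.85 in F7025 and 10.11 and 10.33 in Cm484, against 5.88 and 5.92 in F7033, 5.91 and 5.86 in F98902, and 5.96 and 6.04 in F2. The pair was 15.6-fold higher, with the largest gap of any named member (3.26 log2), while the other 3 lines lay within 0.12 log2 of each other as means. The other ribosomal probe sets were not split in this way: the list of 17 tested had 1 more, of ec2e, with the groups apart (by 0.14 log2), and a median difference of 0.40. The cystatin gene cpi2 (LOC100101525) encodes an inhibitor of cysteine proteases. It read 12.09 and 12.21 in F7025 and 11.45 and 11.64 in Cm484, against 7.82 and 7.86 in F7033, 8.40 and 8.93 in F98902, and 8.10 and 8.13 in F2, a 12.5-fold excess of the pair.

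Photosynthetic electron flow was represented by pgr5, whose Arabidopsis counterpart acts in cyclic electron flow around photosystem I. It read 10.75 and 11.16 in F7025 and 10.39 and 9.94 in Cm484, against 7.49 and 7.75 in F7033, 7.03 and 6.38 in F98902, and 3.84 and 4.00 in F2. The pair lay at least 21.9-fold above the mean of the others, and the lines below it formed a series from F7033 to F2. A second pgr5 probe set, which missed the rule, read 8.21 and 8.52 in F7025 and 8.89 and 8.84 in Cm484, against 6.84 and 7.21, 7.05 and 6.44, and 6.10 and 6.47 in F7033, F98902 and F2. The groups were apart there too, by 1.00 log2. Among 14 tested photosynthesis probe sets, these were the only 2 with all arrays of the pair on top, psad1 had them below by 0.36 log2, and the median difference was 0.11.

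Among the lower members, asr1 (LOC542304) belongs to the abscisic acid, stress and ripening family, whose RNA accumulates in drying plant tissue. Its log2 values were 10.74 and 10.88 in F7025 and 9.89 and 8.65 in Cm484, against 13.88 and 13.75 in F7033, 14.04 and 14.16 in F98902, and 13.75 and 13.96 in F2. The pair was 14.8-fold lower on average, yet still bright. The gene cl2-2 (LOC542653) read 5.41 and 5.42 in F7025 and 5.53 and 6.17 in Cm484, against 9.22 and 9.33 in F7033, 8.56 and 8.52 in F98902, and 9.80 and 9.77 in F2. That is 11.9-fold lower in the pair, with F98902 the nearest of the other lines.

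**Figure D2:**
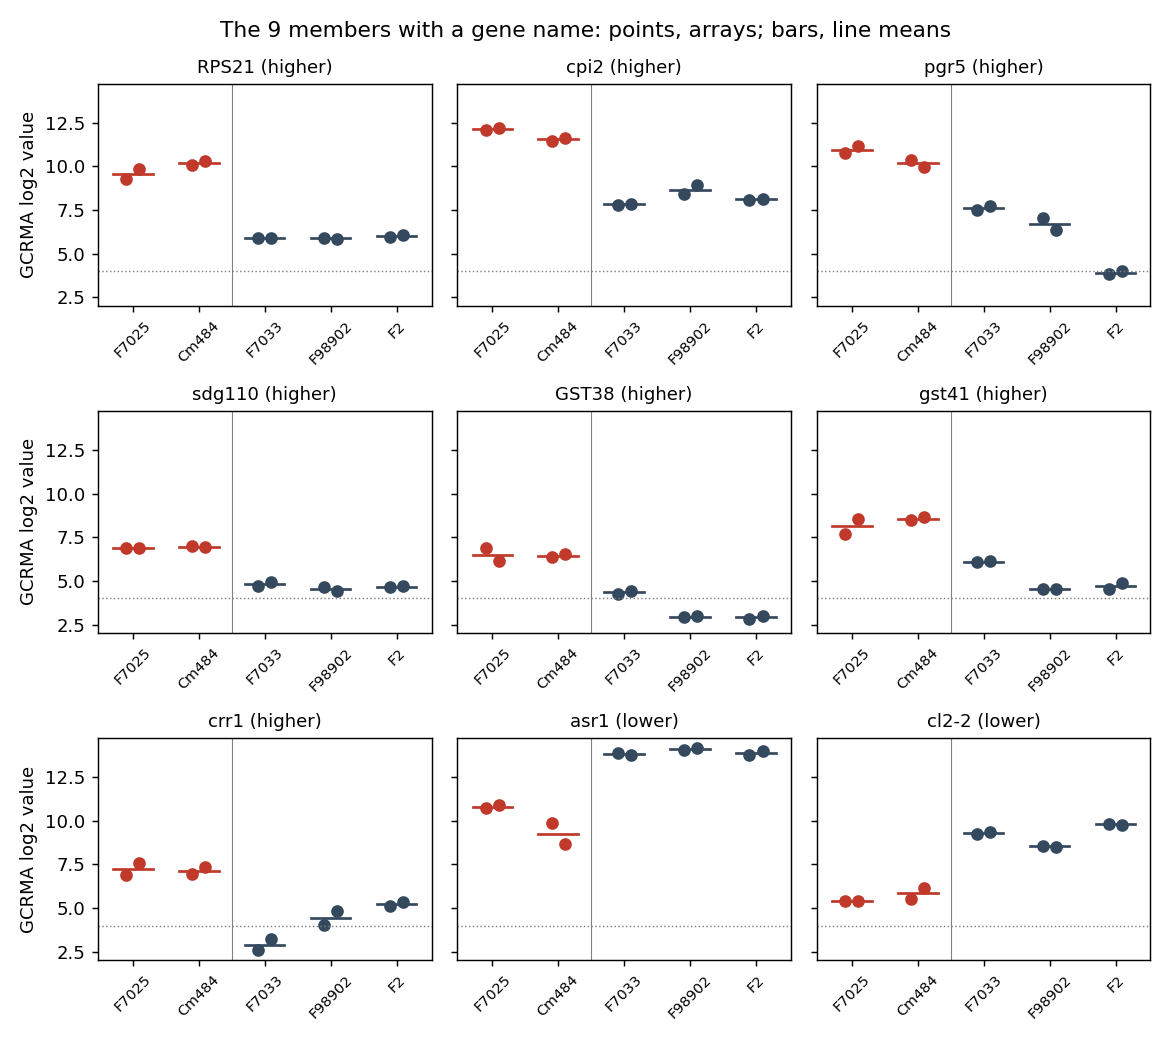
Log2 values of the 9 members with a gene name, by line, with F7025 and Cm484 in red left of the grey line and the other lines in dark blue. Points are arrays, short bars are means of 2 arrays, and the dotted line marks 4 log2. For sdg110 there are 2 flat levels, while RPS21 is flat only among the lines in dark blue. Steps among the other lines show in crr1, pgr5, GST38 and gst41.

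The probe sets with the widest gaps carried no gene name. Among the higher members, Zm.1284.1.S1_at read 9.86 and 9.64 in F7025 and 9.12 and 9.34 in Cm484, against 2.51 and 2.55 in F7033, 2.49 and 2.48 in F98902, and 3.22 and 3.59 in F2, at least 45-fold higher. Next came Zm.16904.2.A1_a_at, at least 19.2-fold higher, and Zm.6868.1.A1_a_at, at least 19.4-fold higher. All their values in the pair lay between 8.14 and 8.38, and those of the other lines were 1.91 to 3.11. Other probe sets of number 16904 were much dimmer. Zm.16904.2.A1_x_at read 3.48 to 4.21 in the pair, against 1.91 to 2.21 in the other lines. Zm.16904.2.A1_at and Zm.16904.1.A1_at were under 4 on all arrays. Among the lower members, Zm.14513.6.A1_a_at had the widest gap of all 67, at 7.67 log2. It read 3.66 and 3.74 in F7025 and 3.63 and 3.63 in Cm484, against 12.10 and 12.24 in F7033, 11.41 and 11.78 in F98902, and 12.16 and 12.34 in F2, at least 256-fold lower. Zm.2055.2.A1_a_at was at least 28.4-fold lower and Zm.8775.1.A1_at at least 10.2-fold lower, with the pair at 2.36 to 2.55 on every array.

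Members differed in how many lines of their lower side were dim. The lower side was under 4 on all its arrays for 12 of the 35 higher members and for 7 of the 32 lower ones. For the remaining 23 and 25, at least 1 array of the lower side read 4 or more. No line had a mean under 4 in 11 of the higher and 20 of the lower members, so that both sides were measured in every line there. The gap had a median of 2.19 log2 (1.52 to 5.54) among higher members and 2.28 log2 (1.51 to 7.67) among lower ones, and it was 3 or more in 14 and 9. Among higher members, the brightest array of the other lines came from F7033 in 14, F2 in 13 and F98902 in 8. Among lower members, the dimmest array of the other lines came from F98902 in 18, F7033 in 8 and F2 in 6. Just inside the limit on the gap stood Zm.11586.1.A1_at (1.52, higher) and Zm.6877.1.A1_at (1.51, lower). Just outside it stood Zm.3316.1.A1_at (1.46, higher) and the gibberellin synthesis gene an1 (1.45, lower). The table also held probe sets apart at any gap, 3.94% as higher and 5.41% as lower, so that the 67 come from the wide end of a continuous range. A further 17 higher and 15 lower probe sets had a gap of at least 1.5 log2 and were left out as too dim.

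**Figure D3:**
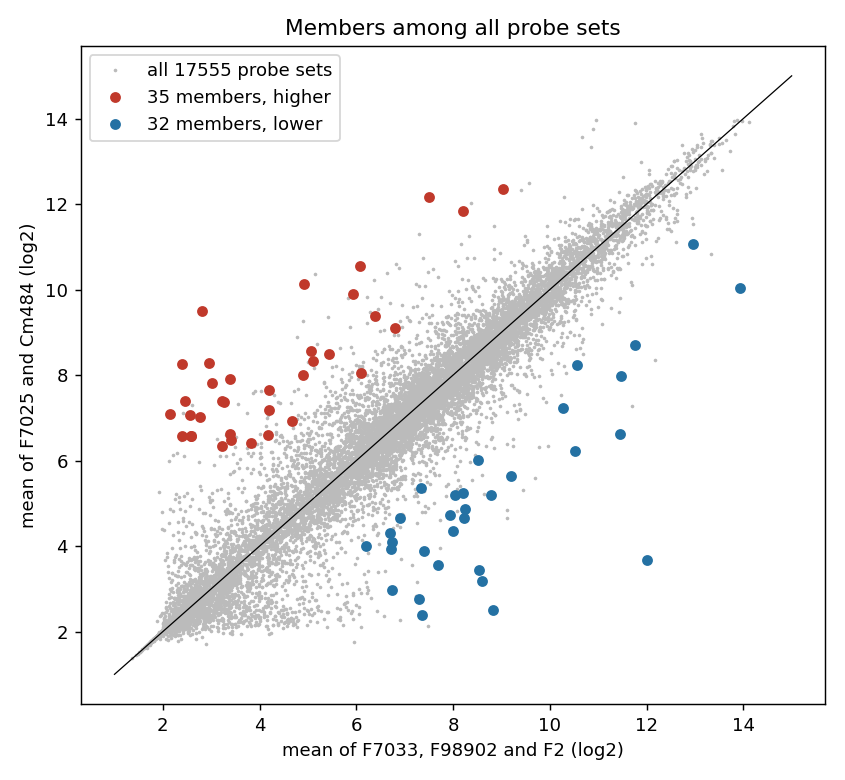
Mean log2 value of F7025 and Cm484 (vertical axis) against the mean of F7033, F98902 and F2 (horizontal axis) for all 17555 probe sets in grey, with the 35 higher members in red and the 32 lower in blue. The black line marks equal means; members lie from 1.9 to 8.3 log2 away from it.

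Names of probe sets in this array share a number where they were built from 1 cluster of transcript sequences, and this offered a second reading of some members. Of 523 pairs of annotated probe sets with 1 number, 459 (87.8%) carried 1 gene, so a shared number usually, but not always, meant a shared gene. There were 53 further probe sets with the number or gene of a member that were not members themselves, and 39 of them passed the filter on dim values. All of these were measured on the same arrays, and some overlap in their probes, so they are not replicates. The groups were apart in the direction of the member in 11 of the 39 and overlapped in 26. In the other 2, Zm.1012.2.S1_at and Zm.6532.3.S1_at, all arrays of the pair lay above all others while the member of that number was lower. Zm.1012.2.S1_at read 7.89 to 8.14 in the pair, against 6.92 to 7.42 in the other lines. Their difference across the split was within 0.5 log2 of 0 in 18, at least 0.5 log2 the same way in 16, and at least 0.5 log2 the opposite way in 5.

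In several cases 1 probe set of a number was split and the others were not. All 8 others of number 14513 were tested, and their differences ran from −0.27 to 1.23 log2, against −8.34 for Zm.14513.6.A1_a_at. One of these 8, Zm.14513.4.S1_at, read 9.98 and 9.94 in F7025 and 9.74 and 9.35 in Cm484, against 10.35 and 10.28 in F7033, 9.56 and 9.62 in F98902, and 10.18 and 10.12 in F2. The 8 others of number 15800 differed by −0.16 to 0.27, against −1.90 for Zm.15800.4.A1_a_at. That member read 11.25 and 11.02 in F7025 and 11.09 and 10.87 in Cm484, against 13.03 and 13.18 in F7033, 12.87 and 13.08 in F98902, and 12.79 and 12.81 in F2. Its close namesake Zm.15800.4.A1_at read 13.02 to 13.31 in the pair, against 13.19 to 13.46 in the other lines. Both others of number 1544 differed by −0.48 and −0.02, against 5.21 for Zm.1544.1.A1_a_at. In each of these 3 numbers, 1 probe set met the rule and every other tested one had overlapping groups.

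Elsewhere several probe sets of 1 number or gene moved alike. Both Zm.12157.1.S1_at and Zm.12157.1.S1_a_at were members, with differences of 3.01 and 3.06 log2, and so were Zm.17339.1.A1_a_at and Zm.17339.2.A1_a_at, with 3.98 and 4.00. A further probe set of number 17339, Zm.17339.2.A1_x_at, differed by 2.52 log2. It read 3.98 to 5.55 in the pair and missed the rule. For cpi2, a probe set of the same gene read 12.31 and 12.30 in F7025 and 11.88 and 12.16 in Cm484, against 9.99 and 9.94 in F7033, 10.63 and 11.01 in F98902, and 9.91 and 10.26 in F2, a difference of 1.87 log2. Of the number's other tested probe sets, 1 differed by 2.12 and 1 by 0.77, the last with overlapping groups. The other tested probe set of sdg110 differed by 1.35 log2. A further 2 probe sets of cpi2 and 2 of sdg110 were under 4 on all arrays and were not tested. For asr1, the second probe set of the gene read 12.57 and 12.50 in F7025 and 9.13 and 9.11 in Cm484, against 13.32 and 13.46 in F7033, 13.15 and 13.27 in F98902, and 13.40 and 13.42 in F2. There F7025 stood closer to the other 3 lines than to Cm484. The 9 others of the asr1 number were mixed, with differences from −2.51 to 0.94 log2: 4 had the pair below all others, 4 had overlapping groups, and Zm.6532.3.S1_at had the pair above, at 8.92 to 9.35, against 7.86 to 8.46 in the other lines.

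Probe sets whose name ends in _a_at, which by the maker's naming detect several transcripts of 1 gene, made up 14 of the 67 members (20.9%), against 7.17% of all probe sets. Those ending in plain _at made up 76.1% and 87.5%. The ZmAffx probe sets numbered 4 (5.97%), against 12.4% of all. These shares are descriptions, and the set was not tested for enrichment.

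**Figure D4:**
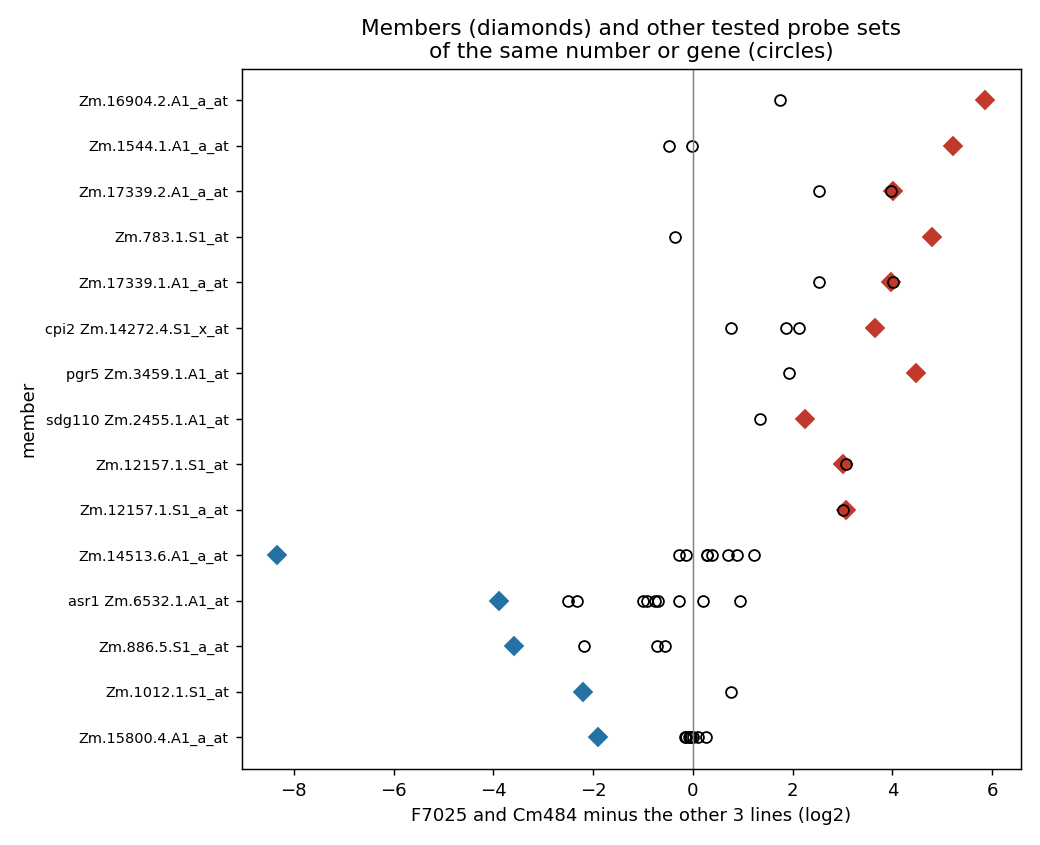
Difference in log2 value between F7025 and Cm484 and the other 3 lines, for members (diamonds, red where higher and blue where lower) and other tested probe sets of the same number or gene (circles). Circles of numbers 14513, 15800 and 1544 lie near 0 or across it, while those of 12157 lie at the diamonds. For 17339, the circle of Zm.17339.2.A1_x_at lies nearer 0, at 2.52 log2, and the rest lie at the diamonds.

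The comparison of F7025 with Cm484 was not what the rule measured, although the rule needs both on the same side. Both lines differed little at most members, some of which were dim in both. In the limma fit across 11066 probe sets, 5 of the 67 passed an adjusted p of 0.05 (7.46%), against 16.5% of all probe sets and 13.8% of those with at least 6 log2 on all 4 arrays. F7025 was higher in 2 of the 5 and lower in 3, where 7.86% and 8.61% of all probe sets passed in those directions. The median size of the difference was 0.20 log2 among members, against 0.28 over all tested. The rule needs both lines on the same side of the gap, and its part in the lower share was not tested. In 7 of the 32 lower members, all 4 arrays of the pair read under 4. These passed the filter only through the other lines, and values near the floor leave little room for a difference. The 35 higher members read at least 6 log2 on all 4 arrays, and 2 of them were called (5.71%). With single arrays left out, 2 to 8 members were called: 2 without F7033 replicate 1 or 2, F2 replicate 1 or 2 or Cm484 replicate 2, 3 without F7025 replicate 1, and 8 without F98902 replicate 1 or 2.

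The 2 members that were called higher in F7025 were both named genes. For asr1 the difference was 1.55 log2 (SE 0.33, adjusted p = 0.0157), with both arrays of F7025 above both of Cm484. That call was lost without either array of F7025 (adjusted p = 0.0671 and 0.0507). For cpi2 it was 0.61 log2 (SE 0.17, adjusted p = 0.0432), and 11 of 17 alternatives ended that call, with adjusted p up to 0.205. Zm.9904.2.A1_a_at was the member that differed most within the pair. It read 4.23 and 6.02 in F7025 and 7.89 and 8.37 in Cm484, against 10.52 and 10.14 in F7033, 11.83 and 12.11 in F98902, and 11.82 and 12.27 in F2. F7025 minus Cm484 was −3.002 log2 (SE 0.50, adjusted p = 0.00514), a call lost in 1 of 17 alternatives, without the 3 arrays of least RNA (0.115). The other calls, Zm.783.1.S1_at (−1.08) and Zm.18821.1.A1_at (−0.76), had adjusted p of 0.0469 and 0.0431 and were lost in 13 and 10 of 17 alternatives. RPS21 was not called, at −0.64 log2 and an adjusted p of 0.0504, nor were pgr5 (0.79, 0.0737), gst41 (−0.43, 0.317) and cl2-2 (−0.44, 0.164). For GST38, crr1 and sdg110 the differences were 0.06, 0.08 and −0.08 log2.

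Calls among F7033, F98902 and F2 came at shares near those over all probe sets, though some members were dim in all 3 lines. Between F7033 and F98902, 29 of 67 members were called (43.3%), against 42.9% of all probe sets and 39.5% of those with at least 6 log2 on all 6 arrays. Between F7033 and F2 the count was 21 (31.3%), against 37.2% and 33.1%. Between F98902 and F2 it was 25 (37.3%), against 39.8% and 35.7%. The 17 and 18 called between F7033 and F98902 without F7033 replicate 1 or 2, the 11 called between F7033 and F2 without F2 replicate 2, and the 14 called between F98902 and F2 without either array of F2 were the counts moved most by 1 array. All 3 contrasts left 27 members uncalled (40.3%), against 35.8% of all tested probe sets. Of the 35 higher members, 12 were under 4 on all arrays of these 3 lines and passed the filter only through F7025 and Cm484. Values near the floor leave little room for a difference, so shares that include these 12 say little about them. The 32 lower members read at least 6 log2 on all 6 arrays. Of these, 14 (43.8%), 7 (21.9%) and 13 (40.6%) were called in the 3 contrasts, in the same order.

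Named members showed which of the other lines stood apart. The log2 differences here are those of the deposited values, and their size depends on the floor where a line was dim. Dim were F2 in pgr5 (mean 3.92), F7033 in crr1 (2.90), and F98902 and F2 in GST38 (2.95 and 2.92). In GST38, F7033 itself averaged 4.35. F7033 exceeded F2 in pgr5 by 3.70 log2 (SE 0.26, limma adjusted p = 1.7e-05), and F98902 exceeded F2 by 2.79. In GST38, F7033 exceeded F98902 by 1.40 and F2 by 1.43 log2 (adjusted p = 0.00247 and 0.00252), and in gst41 by 1.57 and 1.39 (adjusted p = 0.00215 and 0.00446). F7033 was below F98902 and F2 in crr1, at −1.52 and −2.33 log2 (adjusted p = 0.00957 and 0.00132). The first of these calls was lost without F7033 replicate 1 (0.0742), without F98902 replicate 2 (0.0522) and without the 3 arrays of least RNA (0.112), the last of which also ended the call of gst41 against F2 (0.0506). In cpi2, F7033 was below F98902 (−0.83, adjusted p = 0.0051), and in cl2-2 F98902 was below F2 (−1.25, adjusted p = 0.0015). RPS21, sdg110 and asr1 passed in 0 of these 3 contrasts, and also in 0 at an unadjusted p under 0.05. The largest differences among the 3 lines were −0.12, 0.28 and −0.28 log2 in these genes (SE 0.19, 0.16 and 0.33).

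**Figure D5:**
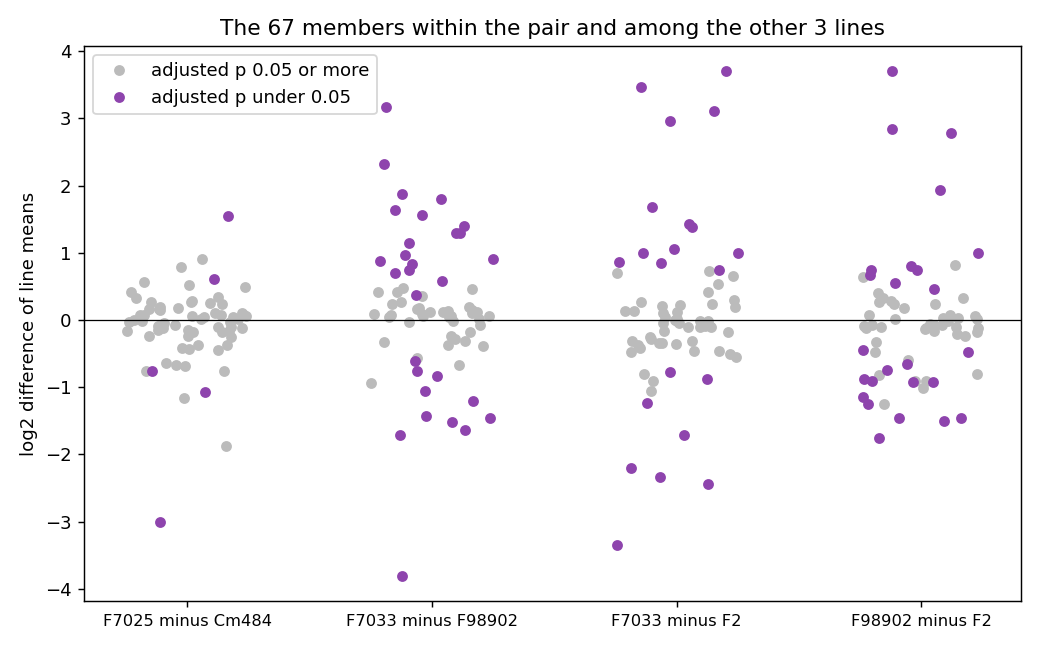
Log2 difference of line means for the 67 members in 4 contrasts, each named first line minus second line, with probe sets past an adjusted p of 0.05 in purple and the rest in grey. The spread is narrower for F7025 minus Cm484, with 5 called, than among F7033, F98902 and F2, with 29, 21 and 25 called. Of all tested probe sets, 16.5% were called for F7025 minus Cm484 and 42.9%, 37.2% and 39.8% in the other contrasts. The rule also needs F7025 and Cm484 on the same side of the gap.

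In the contrast the rule itself used, the pair against the mean of the other 3 lines, 67 of 67 members and 49% of all tested probe sets passed the same threshold, and nothing is read from this. Gene lists chosen by symbol held few members, but only 0.199% of all 17555 probe sets were higher members and 0.182% lower ones. The 58 members with no gene could not fall in any list. A list without members thus says little about its genes. Cellulose synthases (14 tested), aquaporins (28), tubulins (15), heat shock proteins (9), expansins and endotransglycosylases (10), lignin genes (4), benzoxazinoid and jasmonate genes (14), starch and sucrose genes (10), histones (4) and homeobox, MYB and MADS genes (12) held none. Among the 15 tubulin probe sets, 7 had all arrays of the pair above the rest, by 0.45 log2 or less, against 5.68% of all tested, and the list's median difference was 0.35. These 7 stood for 3 genes, with 4 probe sets of tub6, 2 of tua4 and 1 of tub4. Of the 8 pathogenesis-related probe sets, 1, of umi11, had all arrays of the pair on top, against 5.68% of all tested. The list's median difference was 2.32 log2, but several of its probe sets were low in single lines. One of plr354a read 13.88 to 14.08 in the pair, against 5.02 and 4.64 in F7033, 13.89 and 13.79 in F98902 and 14.14 and 14.29 in F2. PR-5 was lowest in F2, at 4.15 and 3.84, and prp2 differed the other way (−0.77).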

How the data were processed

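Stem RNA of 5 maize lines was measured on 10 Affymetrix arrays. The deposited table held 1 log2 value per probe set and array, for which GCRMA is named per the submitters' processing notes, without a version; that they are on a log2 scale follows from their range (1.35 to 14.6). No further normalization was applied. Precision is limited by having 2 arrays per line. Of 17734 probe sets, 113 array controls and 66 reporter controls were left out, and none of them met the rule. The rule's "log2 6" was read as a log2 value of 6. Members, gene lists and tests were chosen with earlier results of these data known, and so was the list of names. Every member with 1 annotated gene was named, as were, by identifier, the 3 unnamed members with the widest gaps in each direction, those at the edge of the gap, and up to 3 members per direction called within the pair. Other probe sets shown were picked by their shared number after their values were seen.

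The contrasts came from lmFit and eBayes with trend in limma 3.58.1 (R 4.3.3), run on 11066 probe sets with at least 4 log2 on 2 or more arrays. Line was the only term, with 5 residual degrees of freedom and Benjamini-Hochberg adjustment over all of them. The fit was tested on simulated data. Tables and plots used Python 3.11.15, pandas 2.3.3 and matplotlib 3.10.9. Alternatives were another gap or brightness limit, quantile normalization, other filters, no trend, array weights, a replicate block and omitted arrays. No sequences of members were used here.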

Additional observations from a re-analysis of the deposited data

How the results depend on the processing

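The size of the set followed its limits. With a gap of 1 log2 it had 58 higher and 57 lower members, with a gap of 2 log2 19 and 20, and with at least 8 log2 on the higher side 14 and 12. Reading the limit as the log2 of 6, chosen after seeing the data, gave 52 and 47. Leaving out single arrays gave 35 to 42 higher and 32 to 39 lower members. An omitted array can only ease the rule, so no member could be lost and these counts do not measure stability. Within the pair, 2 members were called without the filter on dim probe sets and 2 without the 3 arrays of least RNA, where 598 of all probe sets were. Without those arrays, all probe sets called numbered 2603 (F7033 minus F98902), 2270 (F7033 minus F2) and 1477 (F98902 minus F2), and members called in the last 9. Array weights gave 33 members for F7033 minus F2. Leaving out single arrays, the counts of all probe sets called ranged from 818 to 2270 (F7025 minus Cm484), 2922 to 4972 (F7033 minus F98902), 2446 to 4564 (F7033 minus F2) and 2685 to 4626 (F98902 minus F2). Counts of members ranged from 2 to 8, 17 to 30, 11 to 26 and 14 to 28 in the same order. Fewer arrays leave fewer degrees of freedom; otherwise the cause was not tested. Same-numbered arrays did not deviate together in every pair of lines (r from −0.38 to 0.37), so the number was not taken as a pairing. With the replicate block, 5, 28, 22 and 27 members were called. No named difference or gap changed sign. With arrays omitted, the gaps and the differences across the split could not have done so, since the rule fixed their sign.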

Other observations

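Some named genes had the same split and missed the limits of the set; they were looked up after their values were seen. With all arrays of the pair above the others by at least 1.5 log2 but under 6 log2 on some array, 17 probe sets stood outside as higher and 15 as lower. Of these, 3 carried a gene, all higher in F7025 and Cm484. The cyclotide gene umi11 missed by 1 array of Cm484: it read 8.30 and 8.74 in F7025 and 5.93 and 6.26 in Cm484, against 2.41 to 2.76 on the arrays of the other lines, with a gap of 3.17 log2. The tonoplast aquaporin gene TIP2-3 read 4.99 to 5.39 in the pair, against 1.88 to 2.80 in the others. AGPLS3, of the large subunit family of ADP-glucose pyrophosphorylase, read 4.12 to 5.11, against 2.28 to 2.49.

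With a gap between 1 and 1.5 log2 and enough brightness, PDK2 was higher and an1 lower. PDK2, a pyruvate dehydrogenase kinase gene, read 7.77 and 8.16 in F7025 and 7.13 and 7.11 in Cm484, against 5.08 to 6.06 on the other arrays. The gene an1, which encodes an enzyme at the start of gibberellin synthesis, read 5.83 and 5.99 in F7025 and 4.43 and 5.09 in Cm484, against 7.44 to 8.86 in the other lines.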
